A study of Mus musculus with 6 samples.

Results

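The DNA damage checkpoint genes described here are 10 mouse genes chosen by name, with earlier results of these data known: the p53 family Trp53, Trp63 and Trp73, the checkpoint kinases Atm, Atr, Chek1 and Chek2, the histone variant gene H2afx, and the p53 targets Cdkn1a and Mdm2. All 10 were found among the 48709 genes of the count table, and all 10 were among the 20167 genes with enough counts to be tested. Their RNA was measured in ovaries of 13.5 dpc (days post coitum) CD1 wild type embryos, as polyadenylated RNA in 3 control and 3 APAP+IBU libraries. Exposed dams received 30 mg/kg acetaminophen (APAP) and 15 mg/kg ibuprofen (IBU) per day, alternately by gavage every 3 h and 4 times a day from 10.5 to 13.5 dpc. Control dams received ethanol, the diluent. Each library held RNA of pooled gonads from more than one dam, so a library is an average over embryos, and germ cells and somatic cells were measured together. The question addressed is whether exposure of the dam changed the RNA levels of these genes in the fetal ovary.

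When DNA is broken or replication stalls, the kinases ATM and ATR are activated and in turn phosphorylate the kinases CHK2 and CHK1, the histone H2AX around the lesion, and p53. Active p53 raises transcription of Cdkn1a, whose product p21 inhibits cyclin-dependent kinases, and of Mdm2, whose product marks p53 for degradation. In the fetal ovary the same proteins act on the breaks that oocytes make at meiotic entry, and p63 later guards the genome of resting oocytes. Most of this signalling is by phosphorylation and protein stability, which RNA counts do not measure.

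The 6 libraries had total counts from 37811968 to 48954631. Levels are given as CPM (counts scaled to the size of each library, with TMM factors for its composition). The labelled tissue was checked on marker lists: 12 germ cell genes summed to 1589 to 2062 CPM over the 6 libraries and 8 genes of fetal ovary soma to 633.9 to 893.6 CPM, while 8 fetal testis genes summed to 24.4 to 54.1 CPM. Among single genes, Foxl2 of granulosa cells was at 0.944 to 8.16 CPM, and of the testis list Amh was at 0.253 to 2.60, Sox9 at 5.37 to 10.6 and Hsd3b1 at 8.63 to 22.8 CPM. A list of 10 genes of spermatids was also summed, although the fetal ovary holds no such cells. It came to 37.3 to 137.0 CPM in controls and 1.77 to 5.52 CPM after exposure. A list of 10 liver genes summed to 1922 and 3111 CPM in control and APAP+IBU replicate 3 and to 184.8 to 536.6 CPM in the other libraries. A list of 6 macrophage genes summed to 95.6 to 105.3 CPM in controls and 67.5 to 91.8 CPM after exposure. Taken singly, Csf1r, Adgre1, C1qa, C1qb and Mrc1 overlapped between the groups, and Cx3cr1 did not. A list of 10 erythroid genes summed to 7026 to 17120 CPM in controls and 3179 to 10180 CPM after exposure. No gene of these lists was at 0 in every library, and their part in the results was not tested. In bulk RNA, fewer cells of a type and less RNA per cell cannot be told apart.

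Over all 6 libraries none of the 10 genes was called different between the groups. In edgeR's quasi-likelihood test 0 of 10 had an adjusted p under 0.05, and 0.0% of all genes tested did. At an unadjusted p under 0.05, 0 of the 10 passed against 6.22% of all genes tested. DESeq2 called 0 of the 10, with and without its beta prior, against 0.801% and 0.849% of all genes tested, and gave 1, Atm, an unadjusted p under 0.05. The median log2 fold change (APAP+IBU over control) was -0.05 over the 10 genes and -0.0047 over all genes tested. No gene had groups that did not overlap, against 10.7% of all genes tested, 4.78% higher and 5.92% lower. Per kilobase of exon the genes spanned a wide range of levels. H2afx came first at 48.1 ± 17.5 CPM per kb (SD, n = 6), followed by Trp53 at 28.9 ± 3.08, Mdm2 at 18.5 ± 1.11, Chek1 at 16.6 ± 2.97 and Atr at 13.5 ± 4.54 CPM per kb. Cdkn1a at 12.1 ± 1.002, Atm at 9.09 ± 3.29 and Chek2 at 5.94 ± 1.17 CPM per kb came next. Trp73 at 0.532 ± 0.210 and Trp63 at 0.166 ± 0.0368 CPM per kb came last. Between neighbours in this order, only Trp53 and Mdm2, and Chek2 and Trp73, had ranges over the 6 libraries that did not overlap. Lengths are merged over all annotated transcripts of a gene, and that of Atr is the longest at 23629 bp.

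**Figure D1:**
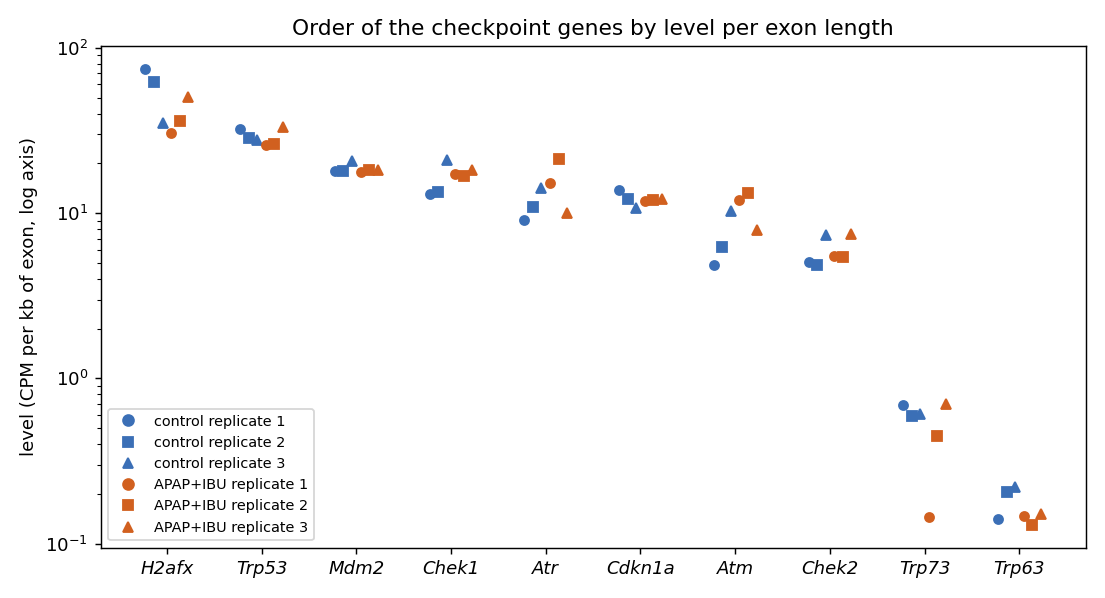
Level of each checkpoint gene per kilobase of merged exon length in each of the 6 libraries, on a log axis, with genes ordered by their mean. Trp73 and Trp63 lie below all others in every library, and the libraries of the other genes overlap between most neighbours.

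The transcription factor p53, the centre of this response, is encoded by Trp53 on chromosome 11 (GRCm38, 69580359 to 69591873, plus strand). Its level was 130.5, 115.0 and 112.2 CPM in control replicates 1, 2 and 3, and 103.7, 105.7 and 133.2 CPM in APAP+IBU replicates 1, 2 and 3. The groups overlapped, and the highest library was an exposed one. The means were 119.2 ± 9.89 and 114.2 ± 16.5 CPM (SD, n = 3 each), and the log2 fold change was -0.06 (SE 0.14, 95% interval -0.39 to 0.26, adjusted p = 0.884, edgeR with Benjamini-Hochberg adjustment).

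Trp63 encodes p63, which is abundant in basal epithelium and in oocytes after birth. It lies on chromosome 16 from 25683763 to 25892102. Lowest of the 10 per kb, it had 1.18, 1.71 and 1.84 CPM in controls and 1.24, 1.09 and 1.28 CPM after exposure, from 45 to 80 reads per library. Control replicates 2 and 3 lay above all exposed libraries and control replicate 1 lay among them. Its log2 fold change was -0.39 (SE 0.29, 95% interval -1.06 to 0.27, adjusted p = 0.700, edgeR). The basal epithelium markers, which share this gene's best known tissue, summed to 24.5, 73.4 and 19.6 CPM in controls and 12.6 to 24.4 CPM after exposure, and Krt5 alone made up 57.8 CPM of control replicate 2.

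Trp73 encodes p73, a p53 relative with roles in multiciliated cells, neurons and the oocyte spindle. It lies on chromosome 4 from 154056253 to 154140208. Controls had 3.83, 3.29 and 3.39 CPM, and exposed libraries had 0.808, 2.47 and 3.88 CPM. APAP+IBU replicate 1, with 41 reads against 113 to 149 in the others, was the low one, and APAP+IBU replicate 3 was the highest of all 6. The highest level was 4.80 times the lowest, the widest range among the 10 genes. The log2 fold change of -0.56 had a SE of 0.49 and a 95% interval from -1.68 to 0.56 (adjusted p = 0.724, edgeR). Counts per gene do not separate the forms of p63 and p73 with and without the transactivation domain.

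**Figure D2:**
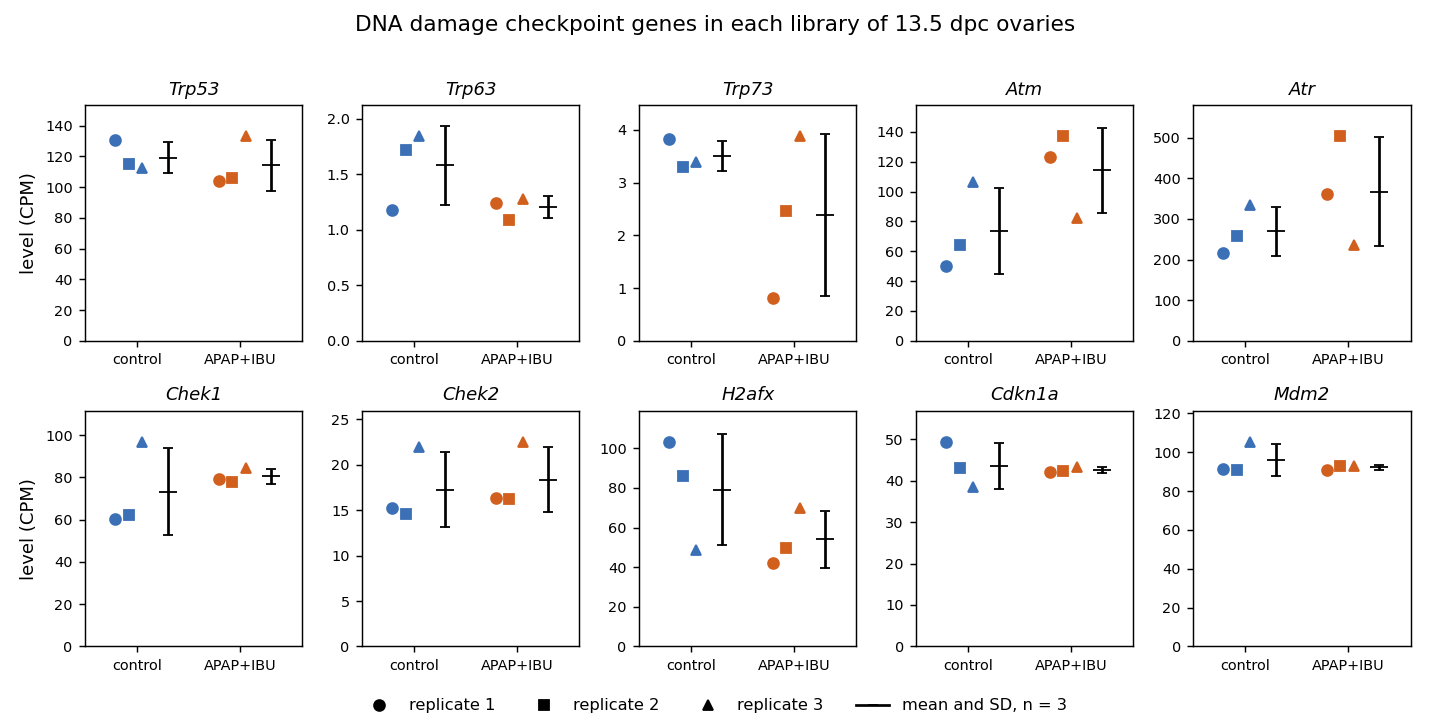
Level in CPM of each of the 10 checkpoint genes in each library, with control libraries in blue, APAP+IBU libraries in orange, marker shapes for replicate numbers, and the mean with SD (n = 3) at the right of each group. In Atm and H2afx, control replicate 3 lies nearer to APAP+IBU replicates 1 and 2 than to the other controls.

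The apical kinase gene Atm spans chromosome 9 from 53439149 to 53536740. Its RNA was at 50.5, 64.4 and 106.3 CPM in control replicates 1, 2 and 3, and 123.4, 137.2 and 82.2 CPM in APAP+IBU replicates 1, 2 and 3. Control replicate 3 was above APAP+IBU replicate 3, and the other 2 controls were below all exposed libraries. The means were 73.7 ± 29.1 and 114.3 ± 28.6 CPM (SD, n = 3 each). The log2 fold change was 0.63 (SE 0.29, 95% interval -0.05 to 1.31, adjusted p = 0.692, edgeR).

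Atr, the kinase gene of the response to stalled replication, lies on the same chromosome from 95857597 to 95951781. It had 215.3, 258.6 and 334.6 CPM in controls and 360.7, 503.7 and 235.6 CPM after exposure. APAP+IBU replicates 1 and 2 were the highest, and APAP+IBU replicate 3 lay between control replicates 1 and 2. For Atr the log2 fold change was 0.44 (SE 0.28, 95% interval -0.20 to 1.09, adjusted p = 0.698, edgeR). The antisense genes 1700065D16Rik and Gm16794, which overlap exons of Atr, were at 0.507 to 0.961 and 1.13 to 2.39 CPM, far below Atr, and the strand setting of the counting is not given in the sources used here.

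Chek1 encodes the kinase downstream of ATR and spans chromosome 9 from 36708482 to 36727065. It was at 60.4, 62.4 and 96.9 CPM in controls and 79.3, 77.8 and 84.4 CPM after exposure. The exposed libraries lay between control replicate 2 and control replicate 3. For Chek1 the change was 0.14 on the log2 scale (SE 0.19, 95% interval -0.30 to 0.58, adjusted p = 0.809, edgeR).

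Chek2 encodes the kinase downstream of ATM and lies on chromosome 5 from 110839979 to 110874145. It had 15.2, 14.6 and 22.0 CPM in controls and 16.4, 16.2 and 22.5 CPM after exposure. Replicate 3 was the highest in both groups, as it was for Chek1 and Trp63. These 2 libraries were also the highest in the liver list above. Between the groups Chek2 differed by 0.09 on the log2 scale (SE 0.22, 95% interval -0.42 to 0.60, adjusted p = 0.898, edgeR).

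H2afx encodes H2AX, the histone variant that is phosphorylated at DNA breaks, including those of early meiotic prophase. It is a gene of 1 exon on chromosome 9 from 44334694 to 44336077. Its level was 103.3, 85.8 and 48.5 CPM in controls and 42.3, 49.8 and 70.1 CPM after exposure. Control replicate 3 lay between APAP+IBU replicates 1 and 2, and APAP+IBU replicate 3 lay between the low and the high libraries. The means were 79.2 ± 28.0 and 54.1 ± 14.4 CPM (SD, n = 3 each). The log2 fold change was -0.55 (SE 0.29, 95% interval -1.22 to 0.12, adjusted p = 0.692, edgeR).

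Cdkn1a, the p21 gene and a direct target of p53, spans chromosome 17 from 29090976 to 29100727. It was at 49.3, 43.1 and 38.3 CPM in controls and 42.1, 42.3 and 43.3 CPM after exposure. All exposed libraries lay within the range of the controls. The means were 43.6 ± 5.52 and 42.6 ± 0.630 CPM (SD, n = 3 each). This gave Cdkn1a a log2 fold change of -0.03 (SE 0.13, 95% interval -0.34 to 0.27, adjusted p = 0.935, edgeR).

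Mdm2, which encodes the ligase that degrades p53, lies on chromosome 10 from 117688875 to 117710758. It had 91.6, 91.0 and 105.4 CPM in controls and 90.7, 93.1 and 92.8 CPM after exposure. The 6 libraries were the closest of any of the 10 genes, the highest being 1.16 times the lowest, and only control replicate 3 stood above the rest. The log2 fold change was -0.06 (SE 0.11, 95% interval -0.32 to 0.20, adjusted p = 0.865, edgeR). With upper quartile scaling Mdm2 was at 91.44 to 107.8 CPM in controls and 91.17 to 91.42 CPM after exposure, and was then the 1 gene whose groups did not overlap, by this small margin, while 7.78% of all genes tested had all exposed libraries below all controls with this scaling. A two-sided exact permutation test on CPM, which at 3 against 3 gives 0.1 at the least, gave p values from 0.2 to 0.8 for the 10 genes.

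The windows before the RefSeq start sites are shown for 2 reasons: p53 acts on Cdkn1a through its upstream region, and Trp53, Atm and Chek2 each share theirs with a gene on the other strand. RefSeq (GRCm38.p6) gave windows for 8 of the 10 genes. In Cdkn1a the capitals mark exact matches to the p53 half-site, the short consensus bound by a p53 dimer, searched on both strands. Stretches with a mismatch stay in lower case, such as the one directly after the second match. The 2 marked stretches need not be the 2 parts of 1 p53 site. The window is the more upstream of 2 for this gene, chr17:29090729-29090978, plus strand, and the capitals begin 73 and 51 bases before the start. In the other 3 the capitals mark CCAAT on either strand, the box bound by NF-Y. The window of Trp53 is chr11:69580109-69580358, plus strand, that of Atm chr9:53536672-53536921, minus strand, and that of Chek2 chr5:110839733-110839982, plus strand.
Cdkn1a: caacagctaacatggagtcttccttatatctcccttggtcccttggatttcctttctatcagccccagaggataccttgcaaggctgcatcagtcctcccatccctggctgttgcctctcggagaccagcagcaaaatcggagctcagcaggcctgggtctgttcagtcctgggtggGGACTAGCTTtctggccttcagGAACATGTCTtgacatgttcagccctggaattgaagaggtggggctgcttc
Trp53: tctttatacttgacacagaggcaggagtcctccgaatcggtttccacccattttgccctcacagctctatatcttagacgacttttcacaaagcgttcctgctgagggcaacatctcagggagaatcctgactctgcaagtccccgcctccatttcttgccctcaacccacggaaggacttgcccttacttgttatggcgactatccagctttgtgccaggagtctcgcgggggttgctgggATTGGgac
Atm: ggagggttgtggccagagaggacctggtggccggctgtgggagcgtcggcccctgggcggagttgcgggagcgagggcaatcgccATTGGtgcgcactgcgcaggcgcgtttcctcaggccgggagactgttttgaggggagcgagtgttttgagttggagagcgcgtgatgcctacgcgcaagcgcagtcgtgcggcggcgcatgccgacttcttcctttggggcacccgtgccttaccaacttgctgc
Chek2: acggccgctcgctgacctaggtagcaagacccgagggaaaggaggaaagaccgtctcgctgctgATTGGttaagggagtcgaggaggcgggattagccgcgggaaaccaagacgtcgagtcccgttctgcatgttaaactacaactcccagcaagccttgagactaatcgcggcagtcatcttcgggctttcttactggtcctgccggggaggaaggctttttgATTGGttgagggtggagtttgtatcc

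Of all 32851 RefSeq windows of 250 bases, 7.13% held a p53 half-site and 33.8% held CCAAT, so CCAAT was common. A half-site was also found in the windows of Trp53 and Mdm2, 75 and 186 bases before the start. The window of Mdm2, a gene with no such partner on the other strand, also held CCAAT, 72 bases before the start. The other window of Cdkn1a, chr17:29093519-29093768, held no half-site. A match is a description of the letters in the window and no measure of binding.

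Atm, Trp53 and Chek2 each start within 307 bp of a gene read in the other direction. Npat, which encodes a cyclin E and CDK2 substrate that activates histone genes at S phase entry, starts 307 bp from Atm. Its level was 57.9, 72.5 and 115.7 CPM in controls and 137.6, 145.6 and 94.2 CPM after exposure, with the same order of libraries as Atm. The ratio of Atm to Npat stayed between 0.871 and 0.942, a 1.08-fold range, while Atm itself varied 2.72-fold. How often other pairs of genes keep to such a narrow range was not tested, nor was its cause. The log2 fold change of Npat was 0.62 (SE 0.27, adjusted p = 0.692, edgeR).

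Wrap53, which encodes a telomerase and Cajal body protein, starts 104 bp from Trp53. It had 34.1, 31.0 and 26.7 CPM in controls and 24.7, 25.6 and 29.6 CPM after exposure, and the ratio of Trp53 to Wrap53 ranged 1.21-fold, from 3.72 to 4.50. Hscb, a gene of iron-sulphur cluster assembly, starts 202 bp from Chek2. It had 20.6, 16.8 and 11.1 CPM in controls and 11.5, 11.9 and 14.9 CPM after exposure. The ratio of Chek2 to Hscb ranged 2.68-fold, from 0.738 to 1.98, so this pair did not keep to 1 ratio. The 6 libraries are too few to rank other genes by their likeness to these.

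**Figure D3:**
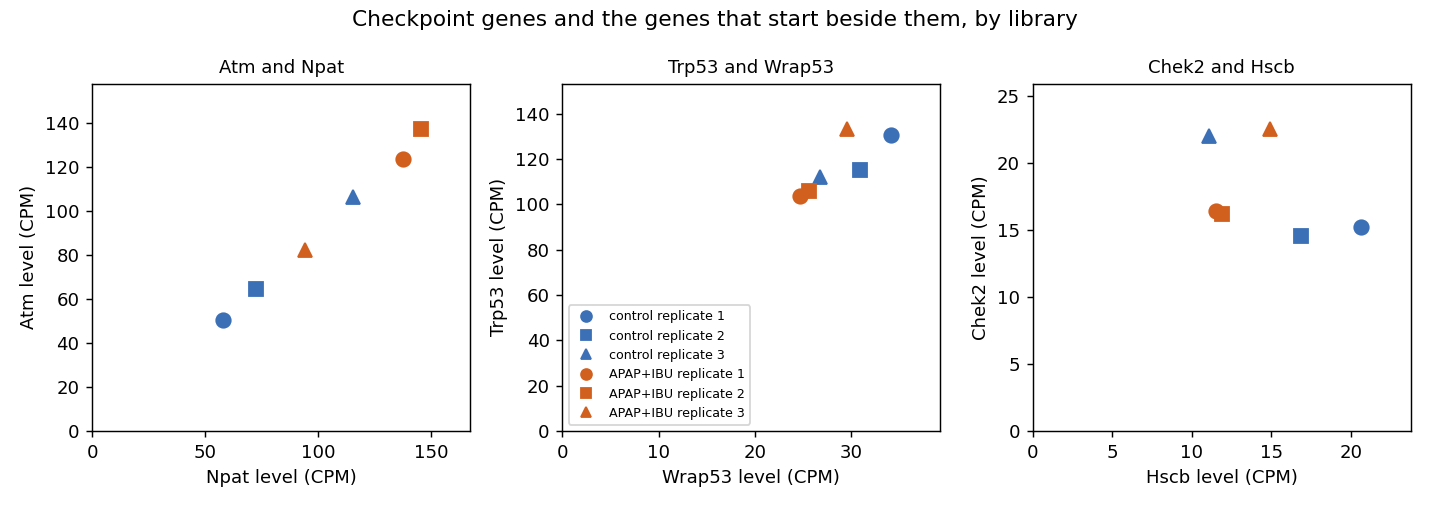
Level of Atm, Trp53 and Chek2 (CPM, vertical axis) against the level of the gene that starts beside each (CPM, horizontal axis) in the 6 libraries, with control in blue, APAP+IBU in orange and marker shapes for replicate numbers. The ratio of Atm to Npat ranged 1.08-fold over the libraries, and that of Chek2 to Hscb 2.68-fold.

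The fit was also made with replicates 1 and 2 of each group only (n = 2 each), a choice made with earlier results of these data known. The 2 libraries left out lay toward the other group in Atm, Atr and H2afx, so that leaving them out widens the gap and narrows the spread in these genes. The p values of this fit depend on that choice, are too small as tests of exposure, and serve here only to describe these 4 libraries. In this fit 27.2% of all 20633 genes tested had an adjusted p under 0.05, with 14.2% higher and 12.9% lower. Of the checkpoint genes 3 of 10 passed as higher and 1 of 10 as lower, so 4 of 10 passed. In DESeq2 with its beta prior the same 4 passed, and 28.4% of all genes tested. Among these 4 libraries Atm had a log2 fold change of 1.20 (SE 0.13, adjusted p = 0.00623, edgeR), against an adjusted p of 0.692 over all 6. Atr had 0.89 (SE 0.16, adjusted p = 0.0110, against 0.698 over all 6) and Chek1 0.38 (SE 0.089, adjusted p = 0.0223, against 0.809). H2afx had -1.02 (SE 0.13, adjusted p = 0.00623, against 0.692). The others did not pass: the log2 fold change was -1.11 for Trp73 (adjusted p = 0.126) and -0.21 for Trp53 (adjusted p = 0.146). For Cdkn1a and Mdm2 it was -0.11 and 0.03, with 95% intervals from -0.37 to 0.14 and from -0.17 to 0.23. Npat passed too, with 1.14 (adjusted p = 0.00623), and Hscb with -0.66 (adjusted p = 0.0231).

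Of the libraries left out singly, control replicate 3 moved the number of genes called most. Without it, 5.16% of genes tested passed, 2.89% higher and 2.26% lower, and among the 10 genes Atm did, with a log2 fold change of 0.99 (adjusted p = 0.0497, edgeR). The other 2 nearest to the threshold were Chek1 with 0.39 (adjusted p = 0.0573) and H2afx with -0.81 (adjusted p = 0.0609). Without APAP+IBU replicate 3 no gene of the 10 passed, and Atm, Atr, H2afx and Trp73 had adjusted p values from 0.420 to 0.437.

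**Figure D4:**
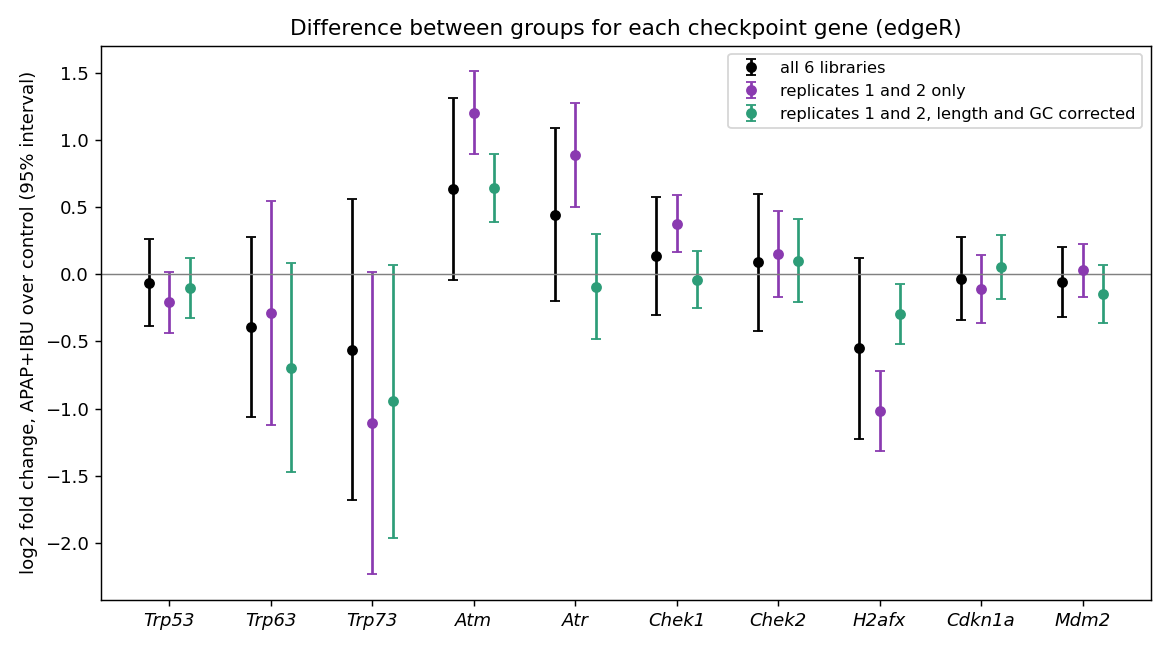
Log2 fold change (APAP+IBU over control) with its 95% interval from edgeR for each checkpoint gene, fitted to all 6 libraries (black), to replicates 1 and 2 of each group (purple) and to those after length and GC correction (green). Trp53, Cdkn1a and Mdm2 stay within 0.21 of 0 in all 3 fits, while Atr moves from 0.89 to -0.09 between the latter 2.

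Gene length and GC content also moved with the libraries. In the shortest quintile of genes, control replicates 1 and 2 had a median deviation from a gene's mean of 0.24 and 0.17 on the log2 CPM scale, control replicate 3 had -0.12, and it was -0.14, -0.11 and 0.04 in APAP+IBU replicates 1, 2 and 3. In the quintile with the lowest GC content it was -0.30 and -0.16 in control replicates 1 and 2, 0.16 in control replicate 3, and 0.21, 0.13 and -0.02 after exposure. Control replicate 3 thus lay with APAP+IBU replicates 1 and 2. Atm and Atr are in the longest quintile and the quintile with the lowest GC content, and Chek1 is also in the latter. H2afx is in the shortest quintile and the quintile with the highest GC content. Trp63 is also in the longest quintile, with a log2 fold change of -0.29 in replicates 1 and 2, opposite to Atm and Atr. Trp73, with -1.11 there, is in the quintile with the highest GC content. Trp53, Chek2, Cdkn1a and Mdm2 are in no outermost quintile. The part of length and GC content in these values was not tested.

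**Figure D5:**
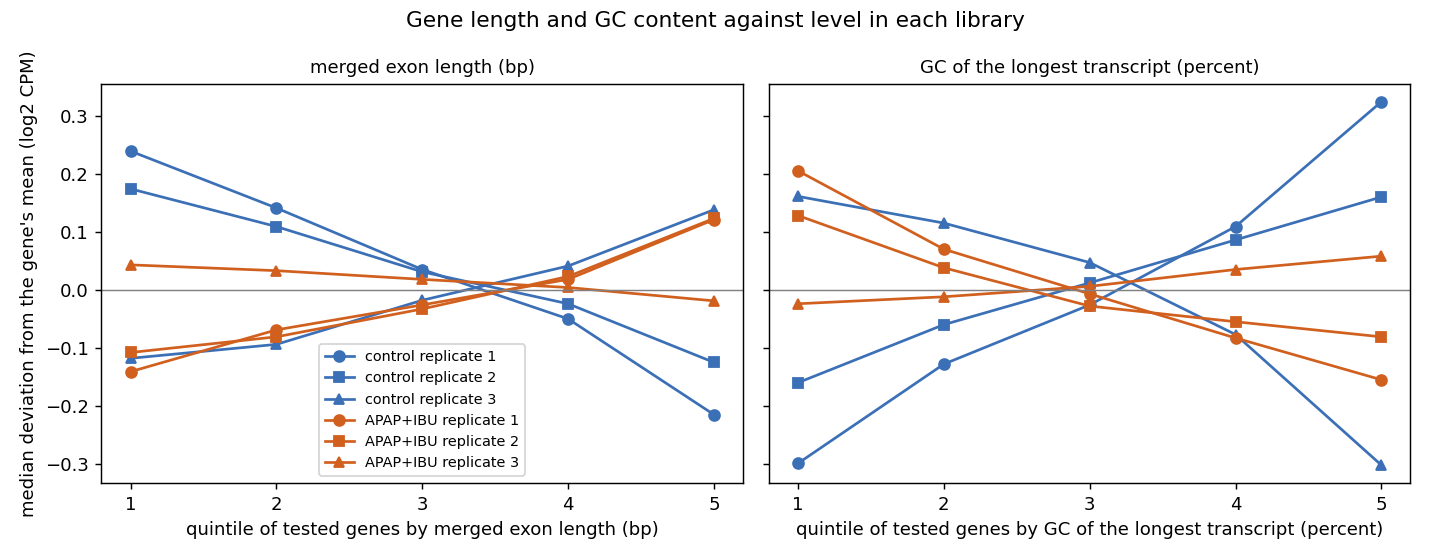
Median deviation of genes from their own mean over the 6 libraries (log2 CPM) by quintile of exon length (left) and of GC content (right), 1 line per library, with control in blue and APAP+IBU in orange. Control replicates 1 and 2 fall with length and rise with GC content. Control replicate 3 and APAP+IBU replicates 1 and 2 slope the opposite way in each panel. The line of APAP+IBU replicate 3 is flatter, from 0.04 to -0.02 with length and from -0.02 to 0.06 with GC content.

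After each library was corrected for length and GC content, 13.1% of genes tested passed with replicates 1 and 2 only, and 5.15% were higher. Of the checkpoint genes 1 of 10 passed. This was Atm, with a log2 fold change of 0.64 (SE 0.11, adjusted p = 0.0144, edgeR), and its partner Npat passed as well with 0.59 (adjusted p = 0.0145). H2afx went from -1.02 to -0.30 and no longer passed (95% interval -0.52 to -0.07, adjusted p = 0.0814). Atr and Chek1 turned to -0.09 (adjusted p = 0.757) and -0.04 (adjusted p = 0.805). Over all 6 libraries the corrected fit called 0.0% of genes, and gave Atm 0.40 (unadjusted p = 0.0261, adjusted p = 0.520, edgeR).

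The corrected levels of Atm were 67.9, 75.6 and 89.3 CPM in controls and 102.5, 119.9 and 85.3 CPM after exposure, so that APAP+IBU replicate 3 still lay below control replicate 3. For H2afx they were 64.3, 69.6 and 71.8 CPM in controls and 52.8, 55.8 and 67.1 CPM after exposure. For Atr they were 352.5, 335.6 and 266.8 CPM and 260.0, 387.7 and 250.7 CPM, with no order by group. Trp63 and Mdm2 then had all exposed libraries below all controls, as did 7.5% of all genes tested, while 6.84% had all exposed libraries above. Trp63 was at 1.47, 1.93 and 1.58 CPM in controls and 1.09, 0.997 and 1.32 CPM after exposure, and Mdm2 at 101.7, 94.8 and 97.2 CPM and 86.3, 91.0 and 93.6 CPM.

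The genes around these 10 in the pathway were taken as 3 lists: 30 checkpoint sensors and mediators, 18 p53 regulators and 30 p53 target genes, all tested. Over all 6 libraries 0 genes of the 3 lists passed in edgeR's test, and 1 in each list had an unadjusted p under 0.05, 3 of 78 or 3.85% against 6.22% of all genes tested. These 3, given as the smallest p of each list and not as changes, were Rpa2, a subunit of the single-strand binding complex that recruits ATR, Ep300, an acetyltransferase of p53, and Ddb2, a DNA repair protein. Rpa2 was at 236.8, 191.2 and 162.1 CPM in controls and 131.5, 135.2 and 174.1 CPM after exposure, with a log2 fold change of -0.42 (SE 0.18, adjusted p = 0.692, edgeR). Ep300 was at 105.1, 104.0 and 170.9 CPM and 175.8, 204.4 and 174.4 CPM, with 0.55 (SE 0.21, adjusted p = 0.692), and its groups did not overlap, as for 3 of the 78 genes on the higher and 4 on the lower side, against 4.78% and 5.92% of all genes tested. Ddb2 was at 37.9, 56.8 and 48.9 CPM and 81.9, 90.4 and 46.1 CPM, with 0.61 (SE 0.26, adjusted p = 0.692).

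With replicates 1 and 2 only, 8 of 30 sensors and mediators passed as higher and 4 as lower, 3 of 18 p53 regulators as higher and 2 as lower, and 5 of 30 p53 targets as higher and 7 as lower, beside 14.2% and 12.9% of all genes tested. As above, these values describe the 4 libraries, and none of these genes passed over all 6. Among the sensors and mediators Mdc1, which binds phosphorylated H2AX, had a log2 fold change of 0.91 (adjusted p = 0.00638, edgeR) and the WEE1-like kinase gene Pkmyt1 had -0.77 (adjusted p = 0.0258). Among the regulators Hipk2, a p53 kinase gene, had 1.09 (adjusted p = 0.00632), and Rpl11, whose ribosomal protein binds MDM2, had -0.88 (adjusted p = 0.00623). Ribosomal protein genes have many processed copies, and their part in the counts of Rpl11 was not tested. Among the p53 targets, Sfn and Bbc3, genes of cell cycle arrest and apoptosis, had -1.51 (adjusted p = 0.00785) and -1.20 (adjusted p = 0.0180), and Rrm2b, a ribonucleotide reductase subunit gene, had 0.78 (adjusted p = 0.00695).

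After length and GC correction of these 4 libraries, 1 of 30 sensors and mediators passed as higher and 7 as lower, 2 of 18 regulators as higher and 3 as lower, and 1 of 30 targets as higher and 0 as lower, beside 5.15% and 7.96% of all genes tested. The 1 target was Ddb2, with a log2 fold change of 0.83 (adjusted p = 0.0189, edgeR), while Rrm2b was at 0.00 (adjusted p = 0.986). Mdc1 had 0.78 (adjusted p = 0.0128), and Rnf8, the ubiquitin ligase gene that acts after Mdc1 at breaks, had -0.74 (adjusted p = 0.0133). Of 5 other H2A variant genes, 0 passed over all 6 libraries. With replicates 1 and 2 only, 4 passed as lower before this correction, where 12.9% of all genes tested did. After it 1 passed, H2afy, with -0.50 (adjusted p = 0.0175, edgeR), where 7.96% of all genes tested were lower. H2afx had -0.30 there (adjusted p = 0.0814, edgeR). These lists were chosen with results of these libraries known and give no independent support.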

How the data were processed

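Polyadenylated RNA of 13.5 dpc ovaries was sequenced from 3 control and 3 APAP+IBU pools with a stranded kit. Reads were aligned to mm10 by the authors, and the deposited values are raw counts per gene of Ensembl release 86, not normalised. The submitters' processing notes name bcl2fastq 2.17.1.14, TopHat2 2.0.14, Bowtie2 2.1.0 and HTSeq 0.6.1. Exposed samples were grouped by their exposure label, which gives APAP+IBU, although their titles give only the second drug. The paper describes independent experiments, each with control and exposed dams, but the labels do not tie same-numbered pools to the same experiment. Deviations of same-numbered pools from the group means correlated at -0.070 to -0.015, which cannot exclude a shared experiment. The main test did not pair them, and the replicate number as a block was an alternative. Replicates of a group differed beyond sampling noise (chi-square over its degrees of freedom, 18.8 or more).

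The main test was the quasi-likelihood test of edgeR 4.0.16 under R 4.3.3, over all genes that passed its expression filter. It used TMM scaling and Benjamini-Hochberg adjustment. The code was first run on simulated counts with a fixed spread and no library-wide trends. That check does not measure the power of the test on these libraries. Levels are CPM, and intervals are at 95%. GENCODE M21 (GRCm38, which is mm10) gave symbols, positions, exon lengths and GC content. The length and GC correction was a loess fit (span 0.3) in each library, for 20103 of the tested genes. DESeq2 1.42.0, other scalings, other filters, the replicate block and leaving out libraries were alternatives. The genes named are the 10 genes, the annotated genes that overlap them or start within 1000 bp, and, in each pathway list, those called or the 3 with the smallest p over 6 libraries and the 3 called with the largest change in replicates 1 and 2. Examples were taken from these. The members, the lists and the fit to replicates 1 and 2 were chosen with earlier results of these data known. That fit was added because an earlier analysis, not shown here, tied the published fold changes to those libraries. This link was not tested here, and the paper describes 3 pools per group. Promoter windows are the bases before RefSeq starts on GRCm38.p6.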

Additional observations from a re-analysis of the deposited data

How the results depend on the processing

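With 3 pools per group, the 95% intervals of Atm and H2afx over all 6 libraries held both 0 and their values in replicates 1 and 2, and Trp63 and Trp73 rest on few reads. The number of the 10 genes with an adjusted p under 0.05, which was 0, became 4 with replicates 1 and 2 only in both edgeR and DESeq2 with its beta prior, and 1 with these libraries after length and GC correction. Leaving out 1 library at a time gave 0 to 1, the 1 being Atm without control replicate 3. For the 78 genes of the 3 pathway lists the number was 29 with replicates 1 and 2 only, 28 with DESeq2 on them, 14 after the correction and 0 to 3 on leaving out 1 library, where Ep300, Mdm4 and Hipk2 passed without control replicate 3. For all genes tested it was 0, and it became 5607, 5704 and 2697 in the same fits, 235 with DESeq2 without shrinkage, 186 with its beta prior, 120 with all genes of at least 1 count kept, and 0 to 1064 on leaving out 1 library, the highest without control replicate 3. The cause was not tested. With the replicate number as a block, 2 genes passed, and 28 with the block and the length and GC correction together. None of the 10 genes passed with the block. Upper quartile scaling gave 1 gene of the 10, Mdm2, whose groups did not overlap.

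Atm, H2afx, Trp63 and Trp73 kept the direction of their log2 fold change in all 19 alternatives. Atr turned to -0.0876 with the length and GC correction, to -0.107 with the block added and to -0.0923 with the correction on replicates 1 and 2 only, and Chek1 to -0.0499, -0.0478 and -0.0412 in the same fits. Cdkn1a turned to 0.0348, 0.0354 and 0.0564 there and to 0.00275 with total counts. Mdm2 turned to 0.0294 with replicates 1 and 2 only and 0.0239 with DESeq2 on them. On leaving out 1 library the log2 fold change ranged from -0.212 to 0.00671 for Trp53, from -0.109 to 0.301 for Chek2, from -0.119 to 0.0627 for Cdkn1a and from -0.0961 to 0.014 for Mdm2. None of these reversed values had an adjusted p under 0.05.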

Other observations

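The 16 genes of a proliferation list were not called over all 6 libraries in edgeR's test, and 0 had an unadjusted p under 0.05. Their summed level was 3087 to 3634 CPM in controls and 2873 to 3568 CPM after exposure, highest in replicate 3 of both groups. With replicates 1 and 2 only, where p values serve as a description, 7 of 16 passed as lower and 1 as higher, beside 12.9% and 14.2% of all genes tested. After the length and GC correction 5 passed as lower and 0 as higher, beside 7.96% and 5.15% of all genes tested. Mcm6, a subunit of the replicative helicase, was at 488.6, 455.5 and 527.4 CPM in controls and 351.0, 353.4 and 463.7 CPM after exposure, with a log2 fold change of -0.33 over all 6 libraries (SE 0.15, adjusted p = 0.692, edgeR). With replicates 1 and 2 it was -0.40 (adjusted p = 0.0191) and after the correction -0.52 (adjusted p = 0.0222). Bub1, a spindle checkpoint kinase gene, was the 1 that passed as higher, with 0.62 (adjusted p = 0.00962), and 0.23 after the correction (adjusted p = 0.260).

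The annotated genes that lie within Trp63, Trp73 and H2afx, and Gm24004 in Atr, had next to no reads. Trp73os, read on the other strand of Trp73, was at 0 to 0.0803 CPM, and the miRNA gene Gm44335 in H2afx at 0 to 0.0260 CPM. Gm24928, Gm27005, Gm26036 and Gm24004 had no read in any of the 6 libraries.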
